A study of Mus musculus with 10 samples.

Results

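Estrogen receptor genes, a receptor relative, genes of the HSD17B enzyme family and an estrogen-induced gene were followed in the mouse line C3H10 T1/2. The 9 genes were Esr1, Esr2, Gper1, Esrra, Hsd17b4, Hsd17b10, Hsd17b11, Hsd17b12 and Greb1. They were taken by symbol, and all 9 were among the 46095 gene symbols of the RNA-seq count table. Peaks of open chromatin were assigned to a gene when they lay within 5 kb of its body, which gave 15 of 29289 merged regions. C3H10 T1/2 is an embryo fibroblast line with mesenchymal properties, and by its title the series is about PIEZO1, a mechanically gated ion channel, with estrogen and force in alveolar bone.

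The groups were cells under cyclic strain and static control cells for RNA-seq (3 libraries each), and Piezo1 knockout cells and GFP control cells for ATAC-seq (2 libraries each). Strained cells were stretched by 10% at 0.5 Hz for 8 h per day over 3 days, after 48 h on flexible plates coated with collagen, and static cells were plated the same way. The knockout was made with CRISPR/Cas9, and ATAC-seq started from 50000 cells per library. The labels name no estrogen treatment in any group, no strained knockout cells, and not whether the knockout cells are 1 clone, and they give RNA-seq for the first pair of groups and ATAC-seq for the second. The knockout itself could not be checked from peak lists.

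Estrogen acts on cells mainly through the nuclear receptors ERα and ERβ, encoded by Esr1 and Esr2, which bind DNA and change transcription once the hormone is bound. GPER1 is a G protein-coupled receptor that gives rapid responses to estrogen at membranes. The hydroxysteroid dehydrogenases of the HSD17B family interconvert weak and potent sex steroids, although several members work chiefly on fatty acids or sterols. In bone, estrogen restrains resorption, and its receptors are found in osteoblast-lineage cells.

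Total counts lay between 36150738 and 41024689 per RNA-seq library. Static control replicate 3 and strain replicate 1 stood apart from their groups, since their counts differed from each other replicate by 37.6 chi-square units or more per degree of freedom, where the remaining pairs gave 9.75 and 16.7. Of 8 fibroblast and mesenchymal markers, 7 exceeded 1 CPM (read counts scaled to library size, with TMM factors) in every library, and Thy1 stayed at 0.0569 CPM or less. Their sum was 58628.5 to 69988 CPM under strain and 79465 to 87945 CPM in static control, without overlap. The collagen genes Col1a1, Col1a2 and Col3a1 and the vimentin gene Vim were called lower under strain, with adjusted p of 0.00236, 0.00734, 0.000771 and 0.0356 (edgeR). Pdgfra, Pdgfrb and Fn1 were not called, with log2 fold changes of −0.03, −0.04 and 0.18 (adjusted p = 0.91, 0.866 and 0.421, edgeR). The 6 epithelial markers summed to 3.15 to 7.90 CPM under strain and 26.6 to 38.4 CPM in static control. Only Krt19 and Cdh1 of them exceeded 1 CPM in every library, and Epcam and Cldn4 had no count in any library. The part of these levels in the results below was not tested. In such bulk samples fewer cells of a type and less RNA per cell cannot be told apart.

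The first comparison asked which of these genes differ in mRNA between strained and static cells. Under strain Gper1 fell to 0.30 of its static level, Hsd17b12 rose 1.38-fold, and Esr1 mRNA overlapped between the groups. Of the 9 genes, 8 passed the filter on low counts, and 1 was called higher and 1 lower at an adjusted p under 0.05 (edgeR's quasi-likelihood test with Benjamini-Hochberg adjustment over 15335 genes). Over all tested genes 13.3% were called, 5.94% higher and 7.39% lower. The median log2 fold change of the 8 was −0.05, and that of all tested genes was 0.0049. In 3 of the 8, Gper1, Hsd17b4 and Hsd17b12, the libraries of the groups did not overlap, which held for 35.3% of all tested genes. CPM compares a gene between libraries, and levels of different genes are not ranked here because transcript lengths were not used.

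**Figure D1:**
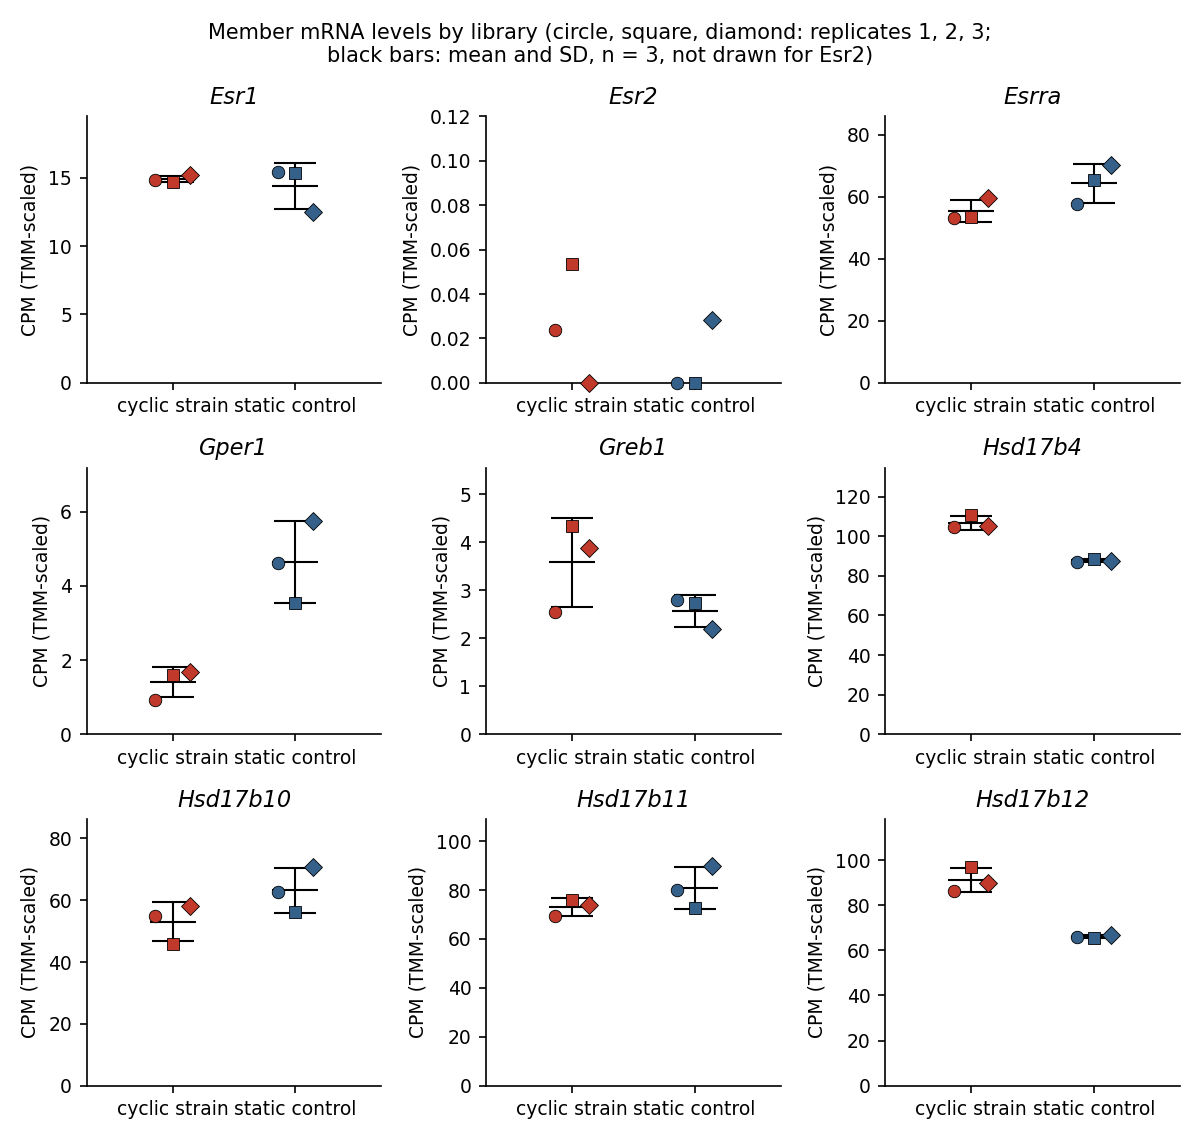
TMM-scaled CPM of each of the 9 genes (vertical axes, starting at 0) in the 3 cyclic strain and 3 static control libraries, with the mean and SD except for Esr2. The groups are apart for Gper1, Hsd17b4 and Hsd17b12, and Esr2 stays at or below 0.0535 CPM in every library.

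Among the receptors, Esr1 was expressed in all 6 libraries. It had 14.9, 14.7 and 15.2 CPM in strain replicates 1 to 3, against 15.4, 15.3 and 12.5 CPM in static control replicates 1 to 3. The groups overlapped, with static control replicate 3 the lowest of the 6. The log2 fold change was 0.05 (SE 0.13, 95% interval −0.23 to 0.33, adjusted p = 0.828, edgeR), and it was −0.04 without static control replicate 3 (adjusted p = 0.856). On the linear scale the interval spans folds of 0.852 to 1.26.

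Esr2, the gene of ERβ, was at the limit of detection. It had 1, 2 and 0 counts in strain replicates 1 to 3 and 0, 0 and 1 in static control replicates 1 to 3. No library held more than 3 counts, the limit that a count of 0 allows, so a difference was not detectable at this depth and no fold is given.

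Gper1, the membrane receptor gene, showed the largest change of the 8 tested genes. It had 0.937, 1.60 and 1.67 CPM under strain (39, 60 and 69 counts), against 4.62, 3.54 and 5.75 CPM in static control (177, 126 and 202 counts). Every strained library lay below every static one. Gper1 averaged 1.40 ± 0.406 CPM under strain and 4.64 ± 1.10 CPM in static control (SD, n = 3 each), with a log2 fold change of −1.72 (SE 0.28, adjusted p = 0.00318, edgeR). With 1 library left out, the value lay between −1.88 and −1.50, and the call held in 6 of 6 such fits. It was −1.32 (adjusted p = 0.00394) with both libraries that stand apart left out.

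Gper1 lies on chromosome 5 (139423150 to 139427800, mm10) inside the body of 3110082I17Rik, which is annotated on the opposite strand. Reads from both genes cannot be told apart if the authors' counting ignored strand, which is not given in the sources used here, so the level of Gper1 is uncertain. The counts given to 3110082I17Rik were 667, 484 and 526 under strain and 587, 484 and 533 in static control. Its log2 fold change was −0.08 (SE 0.13, adjusted p = 0.731, edgeR).

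Esrra encodes the orphan receptor ERRα, which is related to ERα but not activated by estrogen and which acts with PGC-1 coactivators on mitochondrial genes. It had 53.2, 53.3 and 59.5 CPM under strain, against 57.6, 65.3 and 70.1 CPM in static control. The groups overlapped, since strain replicate 3 exceeded static control replicate 1. The log2 fold change was −0.22 (SE 0.11, 95% interval −0.46 to 0.02, adjusted p = 0.211, edgeR). The gene shares 52 bases with Trmt112 at its end.

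Greb1 is an estrogen-induced gene in human breast cancer cells, where its protein acts as a cofactor of ERα. It had 2.55, 4.33 and 3.88 CPM under strain, against 2.80, 2.72 and 2.19 CPM in static control. Strain replicates 2 and 3 lay above all static libraries, and strain replicate 1 lay within their range. Its log2 fold change of 0.48 (SE 0.24, 95% interval −0.06 to 1.02) was not called (adjusted p = 0.219, edgeR), and with 1 library left out it ranged between 0.32 and 0.67.

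Of the enzymes, Hsd17b12 encodes the reductase of very-long-chain fatty acid elongation in the endoplasmic reticulum, and the human enzyme can also turn estrone into estradiol. It had 86.5, 97.0 and 90.0 CPM under strain, against 66.0, 65.4 and 66.8 CPM in static control. All strained libraries lay above all static ones, with means of 91.1 ± 5.33 and 66.1 ± 0.689 CPM (SD, n = 3 each). The log2 fold change was 0.46 (SE 0.09, adjusted p = 0.00984, edgeR). The call was lost without strain replicate 2 (0.41, adjusted p = 0.0589) or static control replicate 1 (0.46, adjusted p = 0.0611).

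Hsd17b4 encodes the peroxisomal bifunctional enzyme of beta-oxidation, which also oxidises estradiol. It had 104, 111 and 105 CPM under strain, against 87.1, 88.7 and 87.5 CPM in static control. The libraries did not overlap, but the log2 fold change of 0.28 (SE 0.09, 95% interval 0.09 to 0.48) did not pass the adjustment over all genes (adjusted p = 0.0611, edgeR). DESeq2 called it (0.28, adjusted p = 0.0255), as did edgeR with library size alone as scaling (0.33, adjusted p = 0.0345).

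Hsd17b10 encodes a mitochondrial dehydrogenase of isoleucine breakdown that is also a subunit of mitochondrial RNase P. It had 54.8, 46.0 and 58.3 CPM under strain, against 62.7, 56.2 and 70.7 CPM in static control. The groups overlapped, and the log2 fold change was −0.25 (SE 0.12, adjusted p = 0.205, edgeR). Hsd17b11, whose product sits on lipid droplets and oxidises androgen derivatives, had 69.2, 76.1 and 74.0 CPM under strain, against 80.0, 72.7 and 89.8 CPM in static control. These groups overlapped too, with a log2 fold change of −0.15 (SE 0.11, adjusted p = 0.396, edgeR). So the 4 enzyme genes differed in sign, with Hsd17b4 and Hsd17b12 above 0 and Hsd17b10 and Hsd17b11 below 0, and 1 of the 4 values was called. These signs were the same with TMM, RLE or library size as scaling.

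**Figure D2:**
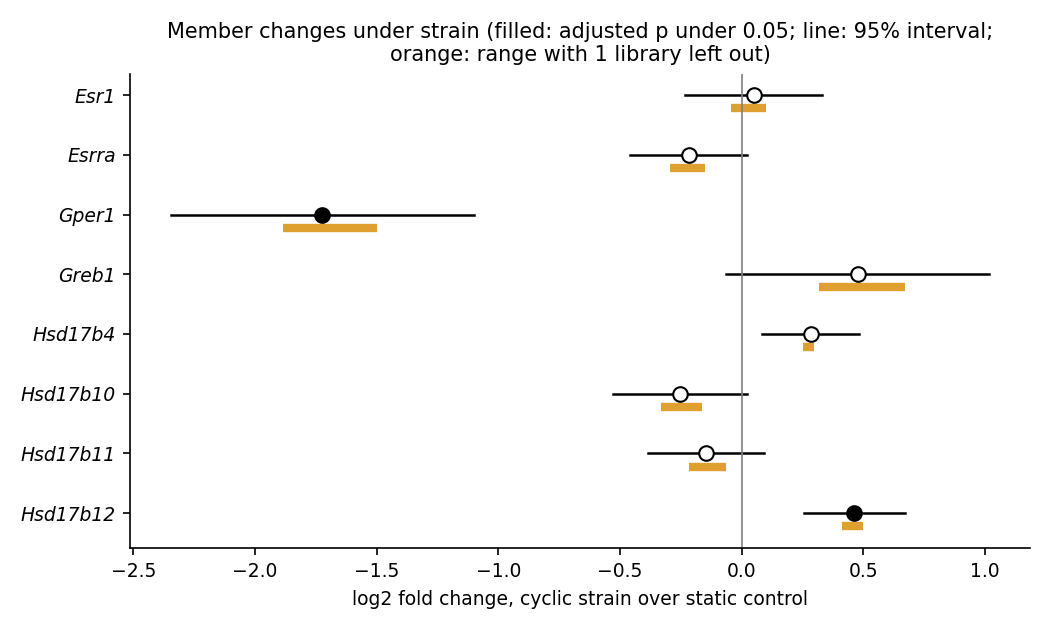
Log2 fold change of the 8 tested genes, cyclic strain over static control, with the 95% interval as a line and the range over fits with 1 library left out in orange. The filled points, at −1.72 for Gper1 and 0.46 for Hsd17b12, are the 2 called genes, and the interval of Esr1 spans 0.

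The genes nearest in pattern were taken by the root mean square difference of centred log2 CPM over the 6 libraries, among 10284 or 10285 other genes whose average log2 CPM reached 2. For Gper1 they were Smoc1 (0.19), Entpd2 (0.20) and Pygl (0.20), with log2 fold changes of −1.37, −1.88 and −1.99. For Hsd17b12 they were Rusc2 (0.02), Ggta1 (0.04) and Mmd (0.04), with log2 fold changes of 0.47, 0.47 and 0.39. For Esr1 they were Zdhhc2 (0.02), Stx16 (0.03) and Farp1 (0.03), all with an adjusted p of 0.789 or more (edgeR). The fold changes of all these genes follow from the choice by pattern over the same 6 libraries and are not a separate result.

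Around these genes, 11 lists of the same pathways were described by their called members, and 21 of 124 tested list genes were called, 15 higher and 6 lower. That is 16.9%, near the 13.3% called over all tested genes (5.94% higher and 7.39% lower), so the pooled count says little about these lists. The list for making, oxidising or conjugating sex steroids had 5 called higher and 0 lower of 11 tested (median log2 fold change 0.40). It also took in genes that act chiefly on other substrates or steps. Of these, Star, Stard3 and Por were not called, and Hsd3b7 and Srd5a3 were among the 5 called. The calls of Cyp1a1, Cyp1b1 and Akr1c18 held in 6 of 6 fits with 1 library left out, and that of Hsd3b7 in 1 of 6. Cyp1b1, which hydroxylates estradiol, averaged 402 ± 29.2 CPM under strain and 161 ± 26.0 CPM in static control (SD, n = 3 each), a log2 fold change of 1.32 (SE 0.13, adjusted p = 0.000185, edgeR). Cyp1a1, which also hydroxylates estrogens, averaged 8.05 ± 0.788 CPM under strain and 0.215 ± 0.147 CPM in static control (SD, n = 3 each). Akr1c18, the reductase that inactivates progesterone, averaged 29.0 ± 2.70 CPM under strain and 11.2 ± 0.428 CPM in static control (SD, n = 3 each), a log2 fold change of 1.37 (SE 0.12, adjusted p = 8.66e-05, edgeR). Srd5a3, a polyprenol reductase of the steroid reductase family, rose 1.34-fold. Its call was lost without strain replicate 2 (adjusted p = 0.131) or 3 (0.128) or static control replicate 1 (0.157) or 2 (0.0822), and without each of these 4 libraries 3 of the list were called higher.

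Cyp19a1, the aromatase that forms estrogens from androgens, had 1 count in all 6 libraries together. Hsd17b1 and Hsd17b14 averaged 1.57 CPM or less in both groups with adjusted p of 0.846 and 0.740 (edgeR), and Hsd17b2 and Hsd17b3 had no count. Among the 3 tested of 8 other enzymes of the HSD17B family 1 was called (33.3%, against 13.3% of all tested genes). This was Hsd17b7, which reduces estrone and also a keto group in cholesterol synthesis. It had 13.6, 18.1 and 12.3 CPM under strain, against 7.24, 6.54 and 5.23 CPM in static control, and the groups did not overlap. Its log2 fold change was 1.21 (SE 0.18, adjusted p = 0.00214, edgeR), and the call held in 6 of 6 fits with 1 library left out.

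Of 19 tested genes known to respond to estrogen in other settings, 3 were higher and 5 lower (median −0.20 on the log2 scale). That is 42.1%, against 13.3% of all tested genes (5.94% higher and 7.39% lower), in a list chosen with earlier results known. Igf1, the growth factor gene, had 32.5, 33.9 and 29.9 CPM under strain, against 72.4, 71.1 and 75.7 CPM in static control, and fell by 1.19 on the log2 scale (SE 0.10, adjusted p = 7.36e-05, edgeR). Igfbp4, which binds IGFs, averaged 275 ± 27.5 CPM under strain and 612 ± 42.8 CPM in static control (SD, n = 3 each), a log2 fold change of −1.15. Slc9a3r1, a scaffold protein gene, rose 1.66-fold, and Areg, an EGF receptor ligand gene, fell by 1.03 on the log2 scale. The call of Areg was lost without strain replicate 2 (adjusted p = 0.0581) or 3 (0.0640) or static control replicate 1 (0.0648) or 3 (0.0527). Without strain replicate 2 or 3 or static control replicate 1 the list counted 1 higher and 3 lower, and without static control replicate 3 it had 3 lower. The balance of directions depended on the settings, with 5 higher and 4 lower with library size alone as scaling or with no filter on low counts, and 5 higher and 5 lower with DESeq2.

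The progesterone receptor gene Pgr, a classic target of ERα, had 2.14, 1.52 and 1.28 CPM under strain, against 0.836, 0.590 and 0.910 CPM in static control. The groups did not overlap, and the log2 fold change of 1.08 (SE 0.33) was not called (adjusted p = 0.0541, edgeR). It was named after its values were seen. Of 6 tested other steroid and estrogen-related receptors, edgeR and limma-voom called 0 and DESeq2 called 1, and 2 had an unadjusted p under 0.05. With library size alone as scaling or with no filter on low counts, edgeR called 1 of this list higher. In these fits and with DESeq2 it was Pgr, with TMM scaling the 1 gene of the 6 above 0. With 1 library left out, Pgr was called in 0 fits. Esrrb and Esrrg averaged 0.0462 CPM or less in both groups.

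Of 22 tested coregulators and pioneer factors of the estrogen receptors edgeR called 0, while 8 had an unadjusted p under 0.05, DESeq2 called 4 and limma-voom 1. Their median log2 fold change was 0.17. With static control replicate 2 left out, 3 were called higher, and with both libraries that stand apart left out, 5 higher and 2 lower. EdgeR called 2 of this list with library size alone as scaling, 4 with no filter on low counts and 5 with the replicate block. Ppargc1a, the gene of the ERRα coactivator PGC-1α, averaged 0.125 CPM under strain and 0.455 CPM in static control (adjusted p = 0.0745, edgeR). Of 9 receptor chaperones edgeR, DESeq2 and limma-voom each called 0, with 2 at an unadjusted p under 0.05. Without static control replicate 3 or with no filter on low counts, 1 chaperone was called higher. With both libraries that stand apart left out, 2 were.

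Of 13 tested targets of ERRα, 2 were higher and 0 lower, with a median of −0.01. This share of 15.4% is near the 13.3% of all tested genes, so the genes named here are single genes and not a result about the list. Pdk4, a kinase that blocks pyruvate oxidation, averaged 42.6 ± 6.48 CPM under strain and 24.6 ± 4.15 CPM in static control (SD, n = 3 each), a log2 fold change of 0.80 (SE 0.15, adjusted p = 0.00745, edgeR). Idh3a, which encodes a subunit of a citrate cycle enzyme, rose by 0.37 on the log2 scale. Its call was lost without strain replicate 1 (adjusted p = 0.0725), 2 (0.101) or 3 (0.105) or static control replicate 1 (0.156) or 3 (0.0569), and 1 gene of the list was called without strain replicate 2 or 3 or static control replicate 1 or 3. With both libraries that stand apart left out, 4 were higher and 1 lower.

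Partners of the 4 enzymes in their other reactions were described the same way. Of 10 tested genes of fatty acid elongation, the pathway of Hsd17b12, 2 were higher and 1 lower with a median of 0.13. That is 30%, against 13.3% of all tested genes. Elovl7, an elongase, averaged 13.0 ± 0.656 CPM under strain and 8.37 ± 0.574 CPM in static control (SD, n = 3 each), a log2 fold change of 0.64 (SE 0.13, adjusted p = 0.0092, edgeR). Hacd1, a dehydratase, averaged 23.3 ± 0.563 CPM under strain and 36.3 ± 3.71 CPM in static control (SD, n = 3 each), a log2 fold change of −0.64 (SE 0.11, adjusted p = 0.00465, edgeR). Of 6 fits with 1 library left out, the elongase Elovl4 (0.70) kept its call in the one without strain replicate 2, and in the other 5, with adjusted p up to 0.133, 1 gene was higher. Its call was also lost with limma-voom (adjusted p = 0.0568).

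Of 13 tested genes of peroxisomal beta-oxidation, the pathway of Hsd17b4, 2 were higher and 0 lower with a median of 0.06, again 15.4% against 13.3% of all tested genes. These were Cat, the catalase gene (log2 fold change 0.40), and Crot, a carnitine transferase gene (0.37). Without strain replicate 2 or 3 or static control replicate 1 neither was called (adjusted p up to 0.187), and Crot also lost its call without strain replicate 1 (0.0838) or static control replicate 3 (0.0918), and with RLE scaling (0.0506) or a filter on summed counts (0.0573). Of 9 partners of Hsd17b10 edgeR, DESeq2 and limma-voom each called 0, and 1 had an unadjusted p under 0.05. With no filter on low counts edgeR called 1 lower, and with the replicate block 1. Of 10 lipid droplet genes around Hsd17b11 edgeR and limma-voom called 0 and DESeq2 called 2, and 4 had an unadjusted p under 0.05. Without static control replicate 3, or without both libraries that stand apart, edgeR called 1 higher. It called 2 higher with library size alone as scaling, 1 lower with no filter on low counts and 3 with the replicate block.

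**Figure D3:**
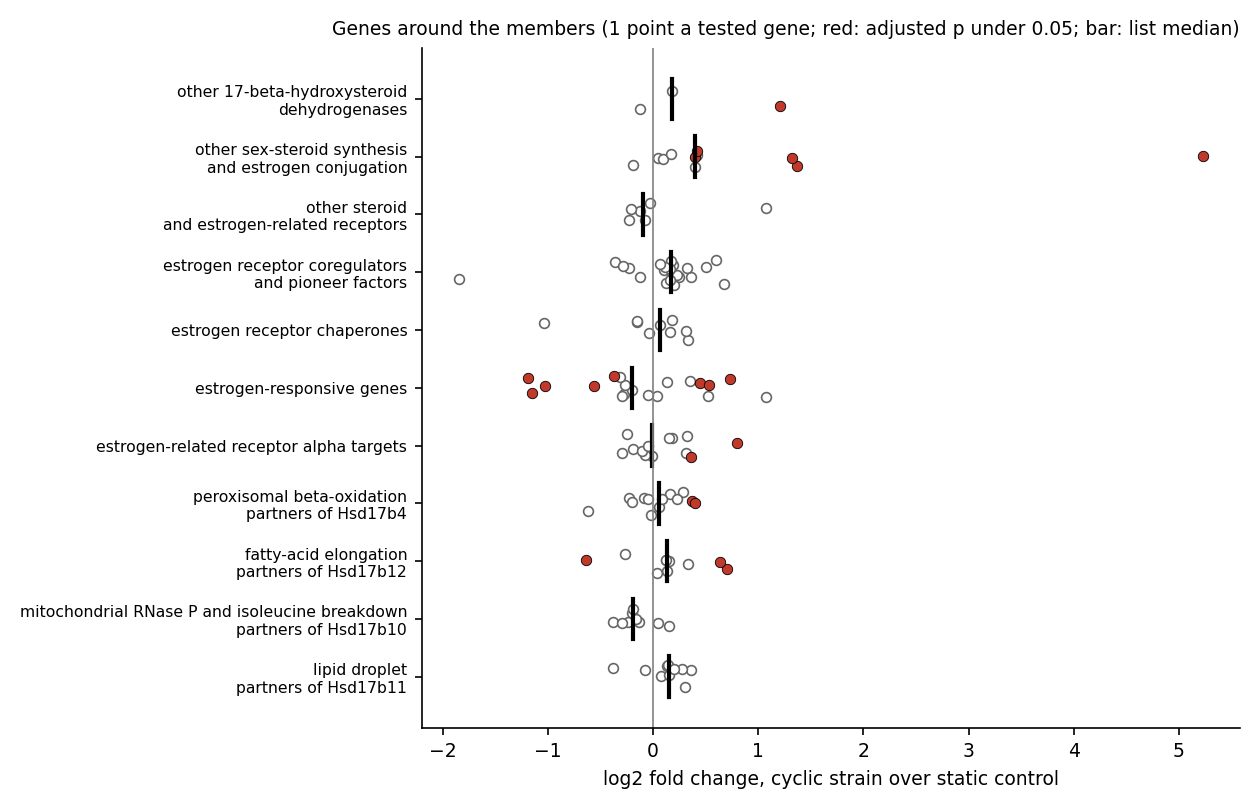
Log2 fold change, cyclic strain over static control, of each tested gene in 11 lists around the 9 genes, with called genes in red and the list median as a black bar. The red points of the sex-steroid list all lie above 0, up to 5.23 for Cyp1a1, and those of the estrogen-responsive genes lie on both sides.

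The second comparison asked where chromatin near these genes was open in Piezo1 knockout and GFP control cells. Peaks of Tn5 insertion were called by the authors in each library on its own, and with 2 libraries a group and no read counts no test was made. Hsd17b12 and Esrra had a peak over their own start in all 4 libraries, while Esr2 and Gper1 had none within 5 kb in any. Within 5 kb of the gene body a peak was found for 3 and 4 of the 9 genes in knockout replicates 1 and 2, and for 3 and 6 in GFP control replicates 1 and 2. Of all 21887 protein-coding genes, 44.2% and 42.6% had one in the knockout libraries and 42.1% and 53.6% in the control libraries. A peak in all 4 libraries was found for 2 of the 9 genes and for 34.9% of protein-coding genes, and a peak in none for 2 of the 9 and for 44.0%.

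The lists differed in length and held 15980 and 13610 peaks in the knockout and 15978 and 26652 in the control. With the same number of peaks in each list, the 13610 strongest, control replicate 2 had peaks at 3 of the 9 genes. Of the 15 merged regions near the genes, 3 were present in all 4 libraries, 0 in both knockout and no control libraries and 1 in both control and no knockout libraries. The last count was 9 without control replicate 1, 2 without knockout replicate 2 and 0 with lists of equal number. Over all 29289 merged regions the shares were 26.4%, 1.57% and 10.6%.

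Promoter windows from RefSeq (GRCm38.p6, the mm10 build; 250 bases before to 50 after the start) were found for 8 of the 9 genes, 10 windows in all. A peak overlapped 3 and 2 of the 10 windows in knockout replicates 1 and 2 and 2 and 4 in control replicates 1 and 2. Over all 32851 windows the shares were 20.7% and 20.6% in the knockout and 19.0% and 26.3% in the control. Of these windows 6 are shown 5′ to 3′ on the gene's strand, the 4 that a peak overlapped in at least 1 library and those of Gper1, the most changed gene, and of the first Greb1 start, the only one with a receptor core motif. Capitals mark the GC box GGGCGG, the CCAAT box and the core AGGTCA that estrogen and estrogen-related receptors bind, on either strand.
Hsd17b12 (chr2:94157860-94158159, minus strand): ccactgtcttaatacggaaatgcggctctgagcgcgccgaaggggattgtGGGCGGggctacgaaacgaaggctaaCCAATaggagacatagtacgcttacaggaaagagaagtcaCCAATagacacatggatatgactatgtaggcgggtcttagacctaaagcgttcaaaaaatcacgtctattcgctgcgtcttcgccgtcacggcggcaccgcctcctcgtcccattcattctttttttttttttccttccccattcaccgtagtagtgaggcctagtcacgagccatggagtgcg
Esrra (chr19:6921759-6922058, minus strand): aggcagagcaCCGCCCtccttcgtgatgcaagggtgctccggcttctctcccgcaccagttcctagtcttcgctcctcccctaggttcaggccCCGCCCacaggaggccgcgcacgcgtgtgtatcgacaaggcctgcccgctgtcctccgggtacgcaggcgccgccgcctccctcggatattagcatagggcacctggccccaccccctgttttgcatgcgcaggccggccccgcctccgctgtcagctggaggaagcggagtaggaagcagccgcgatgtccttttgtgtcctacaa
Hsd17b11 (chr5:104021747-104022046, minus strand): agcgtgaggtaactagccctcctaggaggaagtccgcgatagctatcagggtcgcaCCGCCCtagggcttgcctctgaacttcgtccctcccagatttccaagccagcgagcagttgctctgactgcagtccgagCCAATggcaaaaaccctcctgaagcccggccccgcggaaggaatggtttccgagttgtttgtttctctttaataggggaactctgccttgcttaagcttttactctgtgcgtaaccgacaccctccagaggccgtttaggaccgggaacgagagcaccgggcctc
Hsd17b10 (chrX:152001646-152001945, plus strand): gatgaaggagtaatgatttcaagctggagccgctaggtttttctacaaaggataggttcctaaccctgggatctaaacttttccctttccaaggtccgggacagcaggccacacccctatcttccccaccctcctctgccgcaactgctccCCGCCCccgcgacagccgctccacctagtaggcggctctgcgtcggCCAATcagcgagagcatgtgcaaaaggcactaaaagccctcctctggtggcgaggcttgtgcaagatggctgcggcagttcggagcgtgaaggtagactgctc
Gper1 (chr5:139422929-139423228, plus strand): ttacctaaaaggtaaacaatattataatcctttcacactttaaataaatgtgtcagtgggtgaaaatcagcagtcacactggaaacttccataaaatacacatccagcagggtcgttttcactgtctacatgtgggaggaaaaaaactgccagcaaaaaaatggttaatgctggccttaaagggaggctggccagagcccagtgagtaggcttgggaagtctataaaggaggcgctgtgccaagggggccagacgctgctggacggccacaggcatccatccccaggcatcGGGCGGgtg
Greb1 (chr12:16800837-16801136, minus strand): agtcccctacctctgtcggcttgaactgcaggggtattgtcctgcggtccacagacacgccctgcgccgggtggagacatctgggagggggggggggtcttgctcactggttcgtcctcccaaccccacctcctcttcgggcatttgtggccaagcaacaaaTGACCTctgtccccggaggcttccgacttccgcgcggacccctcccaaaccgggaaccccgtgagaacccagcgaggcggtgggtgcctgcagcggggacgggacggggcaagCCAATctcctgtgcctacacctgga

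None of the 10 windows held the full estrogen response element (GGTCA, any 3 bases, TGACC), which 0.07% of all windows hold, the ERR element TCAAGGTCA (0.423%) or the AP-1 site TGANTCA (7.81%). The core AGGTCA, searched on both strands like the others and contained in the ERR element, occurred in 1 of the 10, at Greb1 with its first base 88 bases upstream of the start, and in 16.3% of all windows. The GC box was found in the windows of Gper1, Esrra, Hsd17b10, Hsd17b11 and Hsd17b12, against 35.7% of all. The CCAAT box was found in the windows of the first Esr1 start, Esr2, Hsd17b10, Hsd17b11, Hsd17b12 and both Greb1 starts, against 37.4% of all. Hsd17b12 had 2 CCAAT boxes, starting 174 and 134 bases upstream of the start. Matches are descriptions of letters in these windows. The guanine and cytosine content was 66.0% at Esrra, 51.0% at Hsd17b12 and 48.3% at Gper1, against a median of 52.7%.

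The Hsd17b12 promoter peak was among the strongest of each list by the authors' −log10 p. It ranked 13 of 15980 and 113 of 13610 in knockout replicates 1 and 2, and 14 of 15978 and 49 of 26652 in control replicates 1 and 2. Its fold enrichment over the local background, as the authors' lists give it, was 9.91 and 9.18 in the knockout libraries and 10.3 and 11.2 in the control libraries. The peak was 841 to 980 bases wide, and its summit lay 198 to 273 bases upstream of the start. Inside the gene, both control libraries and no knockout library had a peak about 21 kb downstream of the start (chr2:94136711-94137164), ranked 14579 of 15978 and 12235 of 26652. Control replicate 2 had 4 further peaks in the gene body, which no other library had.

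The Esrra start carried a peak ranked 1000 of 15980 and 1591 of 13610 in the knockout and 329 of 15978 and 474 of 26652 in the control. A region past the end of the gene (chr19:6909311-6910052) was also open in all 4 libraries. The summits of its peaks lay 151 to 248 bases from the start of Trmt112, so the 5 kb window of Esrra takes in the start of a neighbour.

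At Greb1 neither annotated start had a peak in any library. One region inside the gene (chr12:16778869-16779603), about 22 kb downstream of the first start, was called in knockout replicate 2 and in both control libraries. Its fold enrichment was 3.85 in knockout replicate 2, rank 13166 of 13610, and 6.76 and 6.52 in control replicates 1 and 2, ranks 3303 of 15978 and 7170 of 26652. Knockout replicate 1 had no peak there, and the peak of knockout replicate 2 was near the end of its list.

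**Figure D4:**
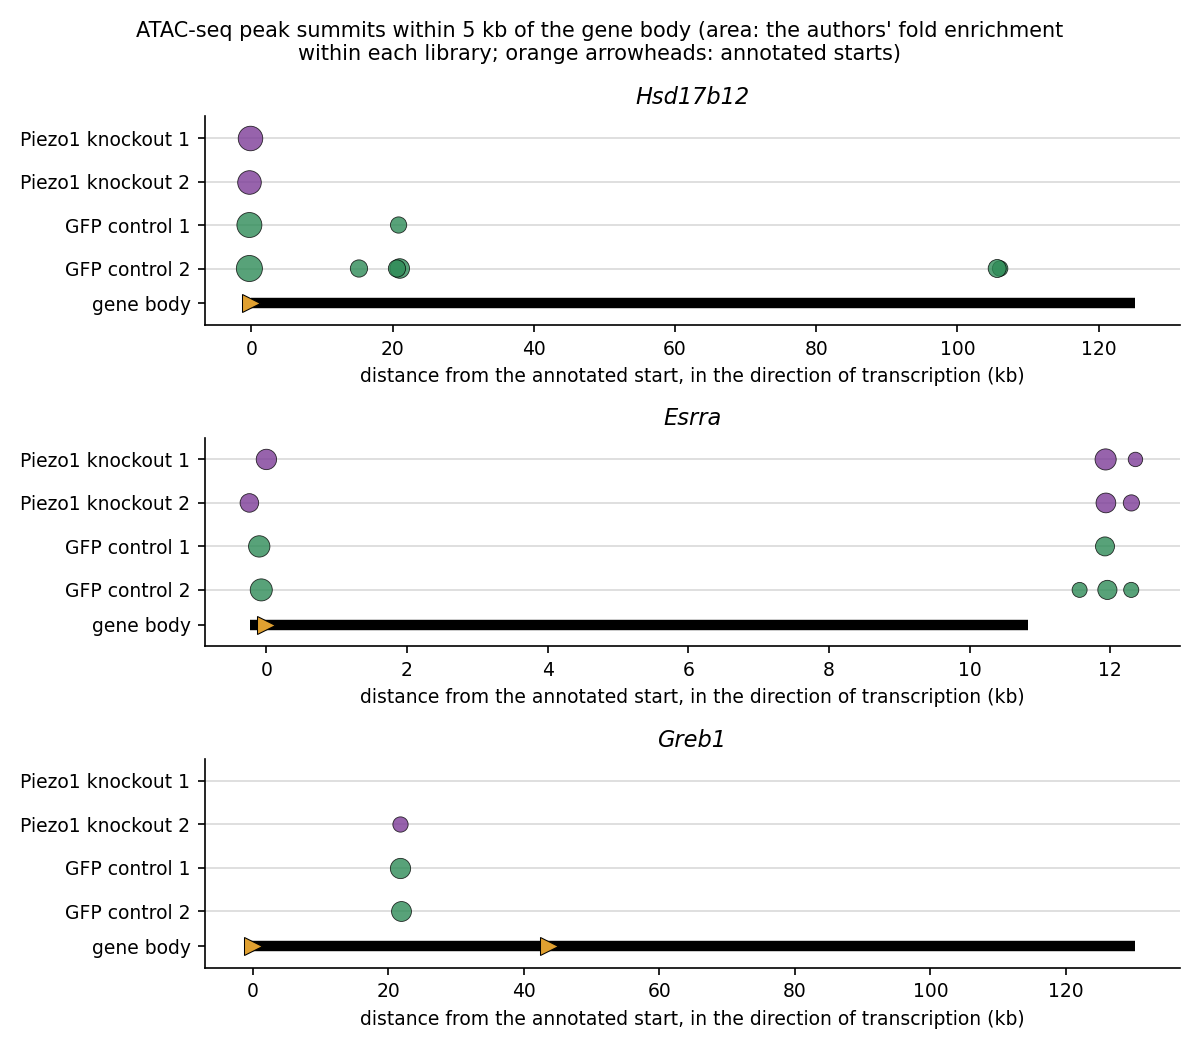
Summits of ATAC-seq peaks near Hsd17b12, Esrra and Greb1 in 2 Piezo1 knockout and 2 GFP control libraries, by distance from the annotated start in kb, with the point area set by the authors' fold enrichment within each library. Hsd17b12 and Esrra have a peak at the start in all 4 libraries, and the Greb1 peak lies about 22 kb into the gene in 3.

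Hsd17b11 had a peak over its start in knockout replicate 1 (fold enrichment 6.52) and control replicate 2 (5.44), and so in 1 library of each group. Hsd17b10 had peaks on both sides of its start in control replicate 2 (4.12 and 3.85), near the end of that list at ranks 23392 and 25361 of 26652. Hsd17b4 had 1 peak, in knockout replicate 2, at the end of the gene body with the lower coordinate on chromosome 18 (50128326 to 50128563).

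Esr1 spans 393645 bases on chromosome 10 and had 1 peak, in control replicate 2 (chr10:4775816-4776194), about 66 kb from the nearer of its 2 annotated starts and ranked 20431 of 26652. Neither start of Esr1 overlapped a peak in any library, although its mRNA was counted in all 6 RNA-seq libraries. The same held for Gper1, which was counted in all 6 and had no peak within 5 kb. Read depth is unknown from peak lists, so a gene without a peak is one where none was called, and RNA and chromatin came from different groups of cells. Piezo1 mRNA, of the gene knocked out in the ATAC-seq study, averaged 702 ± 65.7 CPM under strain and 485 ± 86.2 CPM in static control (SD, n = 3 each), with an adjusted p of 0.0313 (edgeR). This call was lost without strain replicate 2 (adjusted p = 0.0972) or 3 (0.118) or static control replicate 1 (0.0902).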

How the data were processed

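RNA-seq was measured in 3 cyclic strain and 3 static control libraries, and ATAC-seq in 2 Piezo1 knockout and 2 GFP control libraries. The authors deposited 1 table of raw read counts per gene symbol. Per the submitters' processing notes, reads were processed with Trim Galore 0.6.5, STAR, HTSeq and DESeq2 for RNA-seq, and with Trim Galore 0.6.5, Bowtie2 2.4.2 and MACS2 for ATAC-seq, with mm10. The sources used here do not give annotation, strand setting, peak threshold or duplicate handling. Per the labels' protocols, a kit for full-length amplification was used and no molecular identifiers are named, so several reads can come from 1 molecule. The deposited peak lists, 1 per library, give for each peak a fold enrichment (a ratio to the library's own background), −log10 p and q values and a score (10 times the −log10 q). These were used only to describe and filter peaks within a list.

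Strain and static control were compared on the counts by the two-sided quasi-likelihood test of edgeR 4.0.16 (glmQLFit, glmQLFTest; R 4.3.3), with TMM scaling and genes kept by filterByExpr. Called genes had a Benjamini-Hochberg adjusted p under 0.05. The standard error is the absolute log2 fold change over the square root of F, and 95% intervals use the total degrees of freedom. The labels do not say whether replicates were separate cultures, so the spread behind each p-value is that of these libraries and may be technical. No replicates agreed within sampling noise. Regions were merged where peaks overlapped by at least 1 bp. Genes were named by a rule: all members, up to 4 called genes with the largest change from each list, and the 3 genes nearest in pattern to Esr1 and to each called member. Piezo1 was named as the perturbed gene. Outside this rule fall Pgr, Ppargc1a, Cyp19a1, Hsd17b1, Hsd17b2, Hsd17b3, Hsd17b14, Hsd3b7, Star, Stard3, Por, Esrrb and Esrrg. They were named after their values were seen, as were the cell type markers given by name. Members and lists were chosen with earlier results of these data known. Of 161 listed symbols 160 were matched, some by synonym. Scripts were tested on simulated data. The alternatives were RLE and library-size scaling, other filters, DESeq2 1.42.0, limma-voom 3.58.1, a replicate block, leaving out libraries, and other peak windows, thresholds and numbers.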

Additional observations from a re-analysis of the deposited data

How the results depend on the processing

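The fall of Gper1 was called under all 14 alternatives run, and the rise of Hsd17b12 in all but the fits without strain replicate 2 or static control replicate 1. The count of called members was 1 lower throughout. That of higher members was 2, by the addition of Hsd17b4, with library size alone as scaling, DESeq2, the replicate block, or both libraries that stand apart left out (chosen after seeing the data), and with 1 library left out it ranged from 0 to 1. Over all genes, 911 were higher and 1134 lower, and with 1 library left out the counts ranged from 369 to 1085 and from 577 to 1244. Higher genes numbered 1428 with no filter on low counts, 1557 with the replicate block and 1512 with both libraries left out. Library size alone as scaling moved the share of higher genes among called ones to 55.6%, against 44.5%. Esr1 changed sign without static control replicate 3 (−0.043) and with both libraries left out (−0.042), and ranged up to 0.0991 with 1 library left out. Same-numbered libraries correlated by 0.03, 0.21 and 0.09 in their deviations. With 3 libraries a group these values cannot settle whether the numbers pair the samples, so the block result is a hint only. Each static control library correlated best with the strain library of its own number, as did strain replicates 2 and 3 with theirs, while strain replicate 1 correlated best with static control replicate 3.

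For the peaks, regions in both control libraries only numbered 2 with a window of 20 kb, 0 with lists of equal number, and 1 to 9 with 1 library left out. Regions in both knockout libraries only numbered 0 to 1 with 1 library left out, and other regions 3 to 10, or 5 with lists of equal number. With lists of equal number, control replicate 2 had peaks at 3 members. The cause of these changes was not tested, except that fewer peaks or libraries enter by construction. Of 308 counts of called list genes under alternatives, 58 moved by over 1.5 times or from 0 to any other count. Of 420 single-gene values, 58 lost and 4 gained a call and 2 changed sign. These values cover the tested members, Piezo1 and the list genes called in the first comparison. List genes not called there did not enter, so losses and gains of calls cannot be compared. Depth limits Esr2, Cyp19a1 and other genes at a few counts.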
